A study of Mus musculus with 10 samples.

Results

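The cytosolic ribosomal protein genes code for the protein part of the ribosome that translates nuclear messages. They were chosen from the deposited FPKM table. FPKM are fragments scaled to gene length and to a size factor of each library. The rule took protein-coding genes whose names begin with Rpl, Rps or Rplp and a number. Names of the S6 kinases (Rps6k) were left out, and the mean FPKM had to reach 0.5 across the 10 libraries. No difference between genotypes entered that choice. Of 96 names, 87 met the limit, among 52636 gene records of which 15471 reached the same level and were tested. The 87 hold 30 small-subunit genes, 43 large-subunit genes, 3 genes of the P stalk, 3 variant paralogs (Rpl22l1, Rps27l and Rps27rt) and 8 name matches that are no established ribosome component. Those 8 are Rpl7l1, Rps19bp1 and 6 retrocopies with "-ps" in their names. Messenger RNA was profiled in the hippocampus of C57BL/6 mice at 3 months of age, in 5 Tshr-/- libraries and 5 wild-type libraries. Tshr-/- mice lack the receptor by which thyrotropin stimulates the thyroid gland. The labels do not give the deleted part of the gene, whether a library is 1 mouse or a pool, whether littermates were used, or whether thyroid hormone was replaced. P-values therefore measure the spread between these libraries.

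Each ribosome carries a single copy of most of these proteins, and cells make them in matched amounts. Proteins that find no place in a subunit are broken down. Most of the messages begin with a run of pyrimidines (the 5′ terminal oligopyrimidine, or TOP, motif), through which the kinase complex mTORC1 and the RNA-binding protein Larp1 control their translation and stability as a group. In neurons, ribosomal protein messages are found in dendrites and axons as well as in the cell body. The genes have left very many processed pseudogenes in mammalian genomes, so that short reads from one message can match several places.

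The pyrimidine run is the shared sequence of the family that bears on how its members could move together, and it was looked for in RefSeq promoters (GRCm38.p6), which were found for 61 of the 87 genes. The search asked for a C followed by at least 4 more C or T on the coding strand, with that first C within 5 bases of the annotated start. It was present in 30 of 61, or 49.2%, against 24.0% of the 10089 tested protein-coding genes with a promoter. The 6 stretches here show it in capitals, each running from 10 bases before the annotated start to 20 bases after it. They are Rps6 (chr4:86857348-86857377, minus strand), Rps18 (chr17:33955646-33955675, minus), Rpl28 (chr7:4792955-4792984, plus), Rplp2 (chr7:141447641-141447670, plus), Rps27 (chr3:90213629-90213658, minus) and Rps27rt (chr9:114982720-114982749, minus). Rps19bp1 (chr15:80264287-80264316, minus) and Rplp0 (chr5:115559457-115559486, plus) had no such run at the annotated start.
Rps6: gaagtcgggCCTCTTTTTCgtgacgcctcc
Rps18: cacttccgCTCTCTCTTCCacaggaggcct
Rpl28: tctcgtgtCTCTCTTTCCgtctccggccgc
Rplp2: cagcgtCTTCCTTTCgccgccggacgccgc
Rps27: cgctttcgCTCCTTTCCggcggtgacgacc
Rps27rt: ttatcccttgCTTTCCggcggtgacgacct
Rps19bp1: cggaagtagctcgccgcgtgtgggcggggc
Rplp0: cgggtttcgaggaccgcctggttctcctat

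Rps27 and Rps27rt share the letters CTTTCC, which end the run in both, and those that follow. Among other motifs searched on both strands over 250 bases before to 50 after the start, CCGGAAG was in 39.3% of the ribosomal protein promoters and in 18.8% of all of them. CTTTCC was in 52.5% against 30.0%, and CTCTTTCC, which contains it, in 16.4% against 3.87%. GGGCGG was in 62.3% against 69.8%, and TATAAA in 11.5% against 8.42%. The search would miss a pyrimidine run at a start other than the annotated one, so genes counted as without it may carry it. The genes with and without the run by this search had like median differences between genotypes. These were -0.03 for the 30 with it and -0.05 for the 31 without it (log2, Tshr-/- minus wild type).

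Ribosomal protein messages were among the most abundant in the tissue, and their levels spanned a wide range. The median gene of the 87 had a mean level of 64.5 FPKM, against 5.05 FPKM for the median gene tested, and 66 of the 87 lay in the upper 10% of tested genes. Rplp1, a P stalk protein, was highest at 753 FPKM, followed by Rps15 of the decoding side of the small subunit at 403 FPKM and Rpl8, a core protein near the peptidyl transferase centre, at 284 FPKM. The lowest subunit gene was Rpl24 at 1.14 FPKM. That value is uncertain, since 47.0% of its exon bases are shared on the same strand with another record, Gm28037. Nearly identical copies also took 72.5% of the reads of gene and copies together. FPKM times gene length in kilobases was 1.17 for Rpl24 and 3.08 for its copies, against 33.6 for Rpl21. The cause of the low value was not tested. Established ribosome proteins differed 662-fold in level per unit of gene length with Rpl24 and 76.3-fold without it. FPKM divides by the length of all exons of a gene together. Per length of a single coding transcript the same genes differed 435-fold with Rpl24 and 32.9-fold without it, and the order of levels changed (correlation of ranks 0.758 over the 84 genes with such a transcript, a description across genes). The lowest gene inside the limit was Rpl10-ps3 at 0.948 FPKM and the highest outside it was Rpl36al at 0.351 FPKM.

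**Figure D1:**
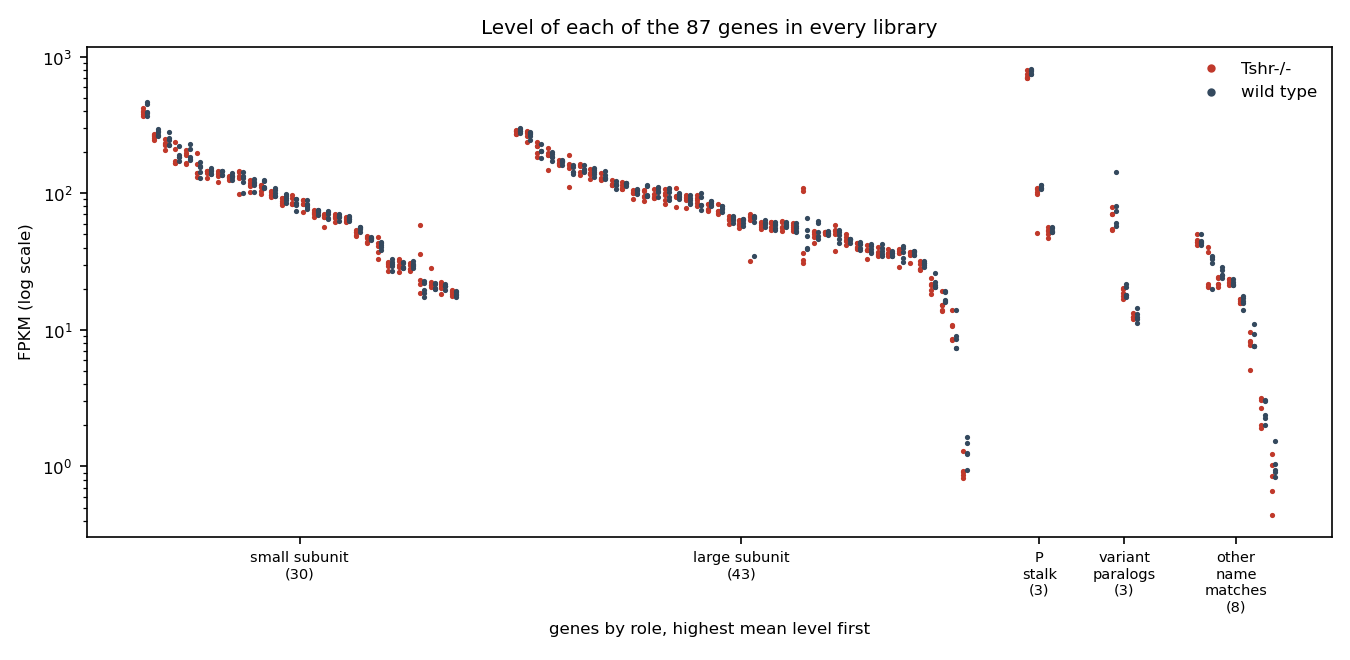
FPKM of each of the 87 genes (log axis) in the 5 Tshr-/- libraries (red, left) and the 5 wild-type libraries (dark, right), ordered within each role by mean level. For most genes the points of both genotypes coincide; Rpl17, Rps27a, Rpl29, Rplp0 and Rps27rt are among those with libraries far from the rest.

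No ribosomal protein gene passed the test between genotypes. With limma and Benjamini-Hochberg adjustment over all 15471 genes, 0 of the 87 passed an adjusted p of 0.05, and the smallest adjusted p was 0.238. In the whole data set 2 genes passed, which is 0.0129%. At an unadjusted p below 0.05 there were 2 of the 87, or 2.30%, where the whole table had 13% (0 of them higher in Tshr-/-, where the table had 4.65%, and 2 lower, where it had 8.38%). None of the 87 had Tshr-/- libraries wholly apart from the wild-type libraries, whereas 1.76% of all genes lay wholly lower and 0.911% wholly higher in Tshr-/-. With the deposited scaling, differences were bounded closely. For 65 of the 87 the 95% interval lay within 0.25 of 0 on the log2 scale (1.19-fold), which held for 31.9% of all genes tested. The median standard error of the 87 was 0.06, against 0.10 for all genes tested. The median level was 64.5 FPKM against 5.05 FPKM. These intervals leave out the choice of scaling, and quantile normalization moved the median difference of the family from -0.03 to 0.05.

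The small differences that were measured leaned lower as deposited, and that lean turned under quantile normalization. In Tshr-/-, 27 of the 87 were above and 60 below wild type, with a median of -0.03, where 46.7% of all genes were above, 53.3% were below and the median was -0.01. After quantile normalization 72 were above and 15 below, with a median of 0.05. With limma voom on the rebuilt read numbers 66 were above and 21 below, but 66.3% of all genes were above there too. Relative to the median of all genes, the median of the family was -0.02 as deposited, 0.05 after quantile normalization and -0.02 with voom. A loess correction for gene length gave 37 above and 50 below. No direction of the family as a whole is therefore given.

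**Figure D2:**
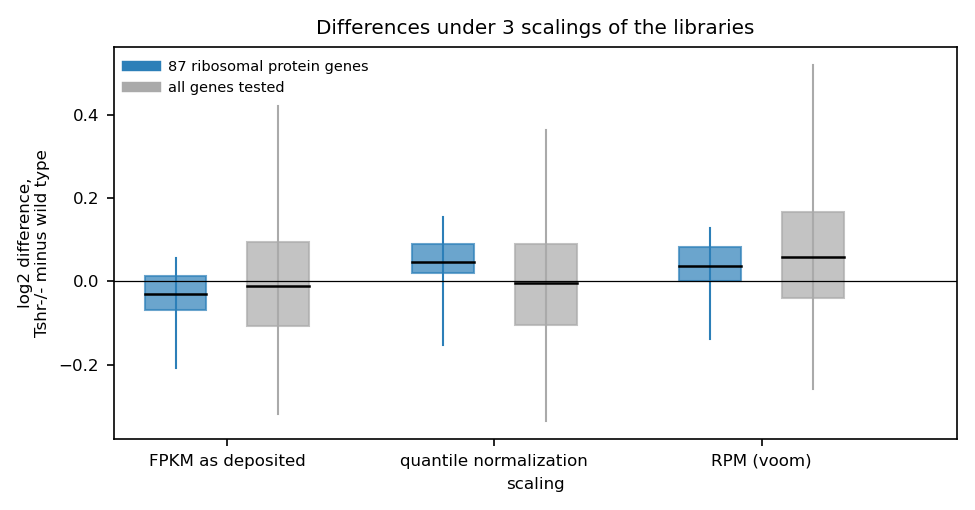
Log2 differences (Tshr-/- minus wild type) of the 87 ribosomal protein genes (blue) and of all 15471 genes tested (grey) under 3 scalings; boxes run from the lower to the upper quartile, black lines are medians and thin lines span the 5th to the 95th percentile. The blue median is -0.03 as deposited, 0.05 after quantile normalization and 0.04 with voom, and the blue boxes are narrower than the grey ones throughout.

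The family held nearly the same part of all FPKM in both genotypes. The 87 genes made up 3.03%, 2.96%, 2.69%, 3.02% and 2.92% in Tshr-/- libraries 1 to 5, against 2.84%, 2.93%, 2.76%, 2.80% and 2.90% in wild-type libraries 1 to 5. Tshr-/- library 3 was the lowest of all 10, Tshr-/- library 5 lay within the wild-type range, and Tshr-/- libraries 1, 2 and 4 lay just above it. The mean was 2.92% ± 0.139 in Tshr-/- and 2.85% ± 0.0692 in wild type (SD, n = 5 each), a difference of 0.0750 percentage points, less than the SD of the Tshr-/- libraries. Without Tshr-/- library 3, the lowest, the difference was 0.134 percentage points, and without Tshr-/- library 1 it was 0.0493. The summed FPKM of the 87 genes was 7953 ± 364 in Tshr-/- and 8154 ± 247 in wild type. The mean share was thus higher and the mean sum lower in Tshr-/-, since the share also depends on the total FPKM of each library. Large-subunit and small-subunit messages stood in like proportion, with 1.19 ± 0.0186 FPKM of large-subunit messages per FPKM of small-subunit messages in Tshr-/- and 1.17 ± 0.0309 in wild type.

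Libraries of the same genotype differed from each other across the whole family. The median gene of the family was 0.10 below its own mean in Tshr-/- library 3 (log2; -0.10) and 0.07 above it in wild-type library 1. In Tshr-/- libraries 1 to 5, 46, 34, 13, 60 and 48 of the 87 genes were above their own mean over all libraries. In wild-type libraries 1 to 5 the numbers were 66, 67, 38, 20 and 46. Tshr-/- library 3 and wild-type library 4 thus stood low across the family, and wild-type libraries 1 and 2 stood high. Without Tshr-/- library 3 the median difference was -0.01, and without wild-type library 4 it was -0.04.

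**Figure D3:**
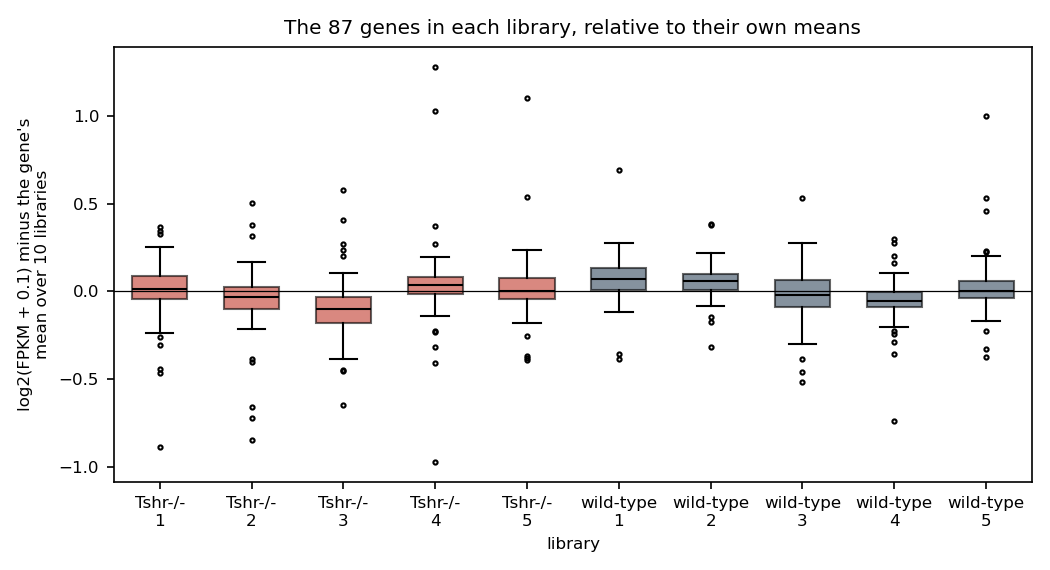
Log2(FPKM + 0.1) of each of the 87 genes minus its own mean over the 10 libraries, as boxes (quartiles, median line, whiskers to 1.5 times the quartile range, single genes beyond) for Tshr-/- libraries (red) and wild-type libraries (dark). The box medians run from -0.10 in Tshr-/- library 3 to 0.07 in wild-type library 1, and both genotypes have boxes on either side of 0.

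The libraries were not alike in their levels of tissue marker genes, which are given here beside the family. All 12 of a list of hippocampal neuron markers were lower in Tshr-/- (9 at an unadjusted p below 0.05), with a summed level of 941 to 1473 FPKM in Tshr-/- and 1306 to 1786 FPKM in wild type, and none was at 0. All 16 markers of thalamus and habenula were higher in Tshr-/- (1 at an unadjusted p below 0.05), summing to 45.9 to 313 FPKM in Tshr-/- and 30.6 to 170 FPKM in wild type. Choroid plexus markers summed to 2628 FPKM in Tshr-/- library 4, which also held the extremes of Rplp0 and Rps27a, and to 49.2 to 93.9 FPKM in the other 4 Tshr-/- libraries, against 34.0 to 139 FPKM in wild type. Rebuilt reads numbered 25744854 to 28332278 in Tshr-/- libraries and 23899650 to 33529811 in wild-type libraries, and Tshr itself had 0 to 5 reads in Tshr-/- and 2 to 12 in wild type, so it checks the labels only weakly. With a thalamic covariate the median of the family was -0.04, and in the 6 libraries lowest in thalamic markers it was -0.03, with 0 genes called in both. The neuron markers' part in the values of the family was not tested. In bulk tissue, fewer cells of a type and less RNA per cell cannot be told apart.

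Among the small-subunit genes 8 were above and 22 below wild type, with a median of -0.03, which turned to 27 above and 3 below after quantile normalization. At an unadjusted p below 0.05 there were 0 of 30. Rps18, a protein of the subunit's head, came nearest. Its level was 52.4, 48.3, 49.6, 51.7 and 54.1 FPKM in Tshr-/- libraries and 56.3, 56.7, 54.8, 51.7 and 55.5 FPKM in wild-type libraries. Only wild-type library 4 fell inside the Tshr-/- range. The difference was -0.10 (SE 0.05, limma with Benjamini-Hochberg, adjusted p = 0.384). Rps6, the protein that S6 kinase phosphorylates downstream of mTORC1, was at 133, 131, 124, 131 and 129 FPKM in Tshr-/- and at 133, 140, 132, 126 and 134 FPKM in wild type. The ranges overlapped, with wild-type libraries 2 and 5 above every Tshr-/- library, and the 95% interval of the difference ran from -0.14 to 0.06. Rps3a1 averaged 261 ± 10.8 FPKM in Tshr-/- and 278 ± 14.0 FPKM in wild type (SD, n = 5 each; difference -0.09, SE 0.05). Rps15 averaged 393 ± 21.2 FPKM in Tshr-/- and 413 ± 42.6 FPKM in wild type. Rps19 and Rps14, whose loss in humans causes Diamond-Blackfan anaemia or takes part in the anaemia of the 5q deletion, differed by -0.06 (SE 0.05) and -0.10 (SE 0.07).

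Rps27a, which is made as a fusion with ubiquitin, had the widest difference of the small subunit. Its level was 23.3, 21.7, 35.8, 58.4 and 18.5 FPKM in Tshr-/- libraries 1 to 5, against 18.7, 22.7, 17.3, 19.6 and 21.9 FPKM in wild-type libraries. Tshr-/- libraries 3 and 4 stood above every other library, and the remaining 3 lay in or next to the wild-type range. The difference of 0.53 (SE 0.27) had an adjusted p of 0.430 with limma and Benjamini-Hochberg.

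Among the large-subunit genes 16 were above and 27 below wild type, with a median of -0.03, which turned to 38 above and 5 below after quantile normalization. The 1 gene with an unadjusted p below 0.05 was Rpl24, a protein at the bridge to the small subunit. It had 0.926, 0.824, 1.29, 0.870 and 0.912 FPKM in Tshr-/- and 1.24, 1.47, 1.65, 1.25 and 0.936 FPKM in wild type. The ranges overlapped through Tshr-/- library 3 and wild-type library 5. The difference was -0.40 (SE 0.16, limma with Benjamini-Hochberg, adjusted p = 0.344). Of the exon bases of Rpl24 (chr16:55966275-55971435, plus strand, mm10), 47.0% are shared on the same strand with Gm28037 in GENCODE vM21, a record listed at 0 FPKM in every library, and 72.5% of the reads of Rpl24 and its near-identical copies together fell in the copies. With the copies pooled its difference was -0.09 (limma with Benjamini-Hochberg, adjusted p = 0.557). The value of Rpl24 is therefore uncertain as a measure of its message.

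Other large-subunit genes lay closer together. Rpl10, which has a loop near the P site, averaged 78.5 ± 4.55 FPKM in Tshr-/- and 84.5 ± 3.06 FPKM in wild type (SD, n = 5 each; difference -0.11, SE 0.05). Rpl13a, which also blocks translation of inflammatory messages when released from the ribosome, averaged 15.5 ± 2.23 FPKM in Tshr-/- and 17.4 ± 1.54 FPKM in wild type (difference -0.17, SE 0.10). Of its exon bases, 35.4% are shared with other genes. Rpl28 averaged 96.4 ± 6.63 FPKM in Tshr-/- and 104 ± 6.99 FPKM in wild type. Rpl5 and Rpl11, which with the 5S RNA restrain Mdm2 when ribosome assembly fails, differed by -0.01 (SE 0.05) and -0.05 (SE 0.05). Rpl41, the smallest ribosomal protein, averaged 212 ± 22.0 FPKM in Tshr-/- and 204 ± 17.6 FPKM in wild type.

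**Figure D4:**
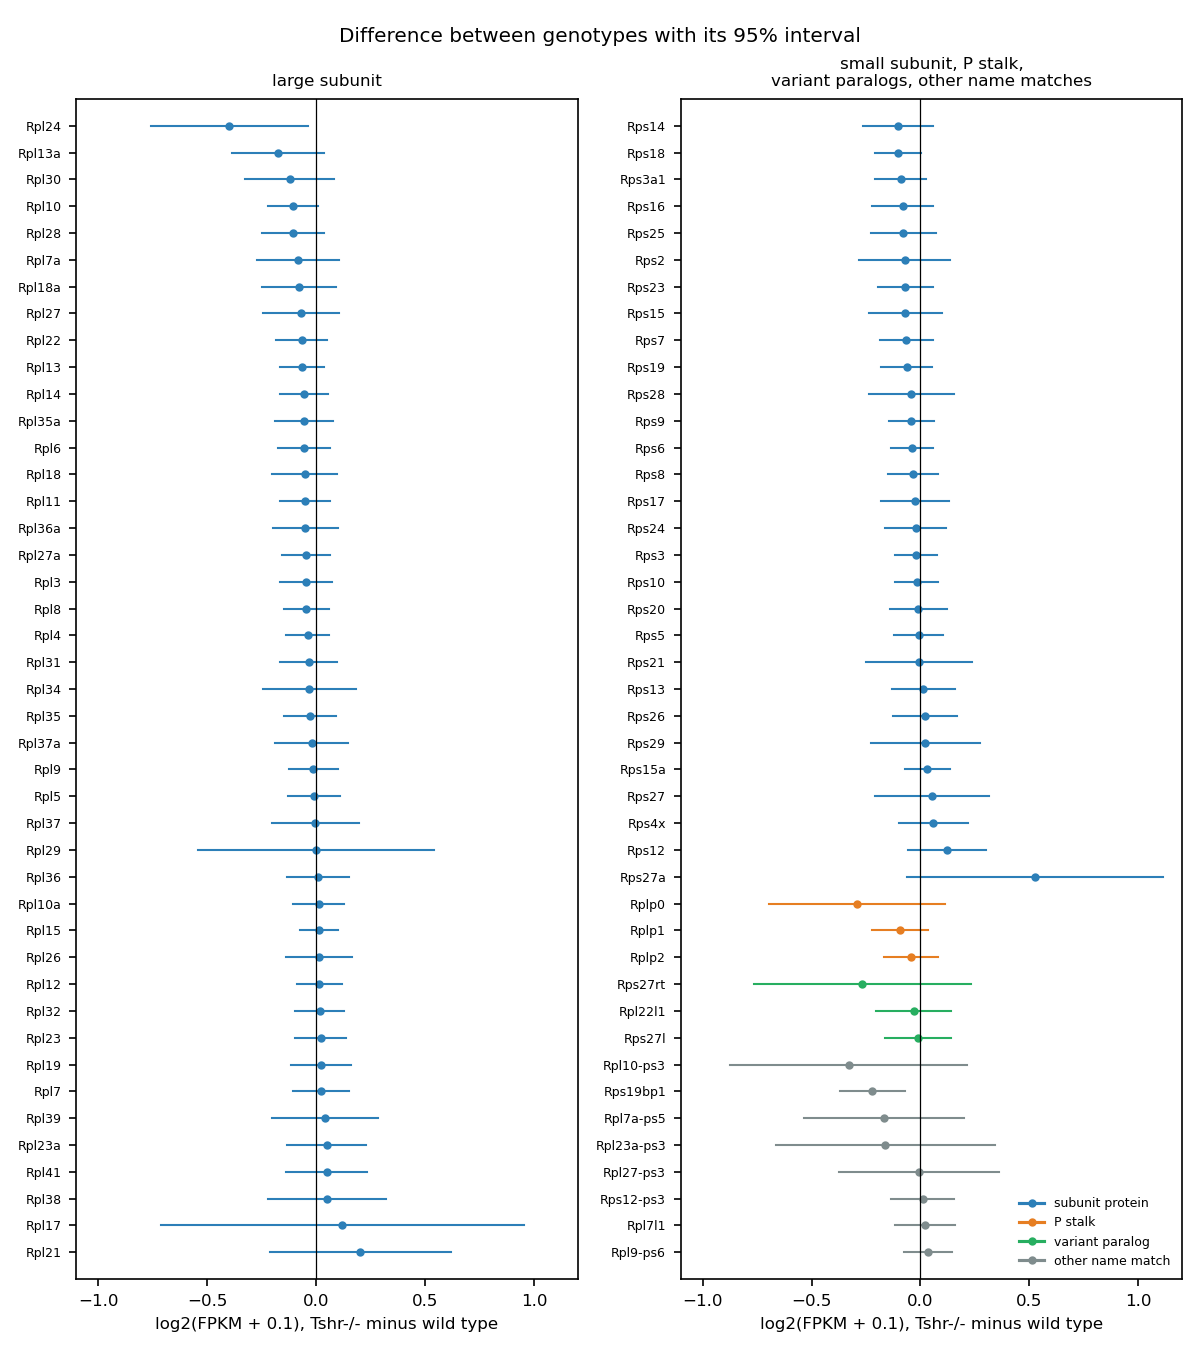
Difference of 86 of the 87 genes between genotypes on the log2(FPKM + 0.1) scale (points) with its 95% interval (lines), large subunit on the left and the other roles on the right. Only the intervals of Rpl24 and Rps19bp1 leave out 0, and most intervals stay within 0.25 of 0; Rpl17, Rpl29, Rps27a, Rplp0, Rpl21 and Rps27rt have some of the widest.

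The P stalk, which binds the elongation factors, consists of Rplp0 and dimers of Rplp1 and Rplp2. All 3 of its genes were below wild type as deposited, while 2 of 3 were above after quantile normalization, and none was called. Rplp1 had 742, 711, 698, 795 and 700 FPKM in Tshr-/- and 794, 808, 752, 789 and 743 FPKM in wild type. Tshr-/- library 4 lay within the wild-type range and the other 4 lay below it (difference -0.09, SE 0.06). Rplp2 averaged 52.3 ± 3.65 FPKM in Tshr-/- and 53.8 ± 2.19 FPKM in wild type. Rplp0 had 102, 99.3, 108, 51.1 and 110 FPKM in Tshr-/-, against 115, 109, 109, 108 and 116 FPKM in wild type. Tshr-/- library 4 stood far below all others (difference -0.29, SE 0.18, limma with Benjamini-Hochberg, adjusted p = 0.521). The summed level of the stalk was 853 to 903 FPKM in Tshr-/- and 911 to 969 FPKM in wild type. Most of that sum was Rplp1, which differed by 0.06 after quantile normalization. Among single genes tested, 1.76% lay wholly lower in Tshr-/-. With the reads of the Rplp0 copy Gm8730 added, the stalk sums overlapped, at 853 to 954 FPKM in Tshr-/- and 911 to 969 FPKM in wild type. Only Tshr-/- library 4 entered the wild-type range, and the other Tshr-/- libraries stayed at 853 to 899 FPKM.

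Reads of several members were divided between the gene and a near-identical retrocopy, and the division differed between libraries. A copy was counted as near-identical at 95% identity or more over at least 80% of the coding sequence. By that measure 476 pseudogene records matched 73 of the 87 genes and held 6.43% of the pooled reads. More than 10% of the pooled reads lay in the copies for 19 genes and more than 50% for 3, Rpl17, Rpl24 and Rpl21. Copies that are themselves among the 87, such as Rps27rt beside Rps27, were not pooled, and these shares leave them out. The pairs described next were chosen after their values were seen.

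Rplp0 (chr5:115559467-115563727, plus strand) and the processed pseudogene Gm8730 (chr8:102864845-102865798, minus strand) mirrored each other in Tshr-/- library 4. There Rplp0 had 84.8 and Gm8730 85.2 RPM (reads scaled by the size factors of the deposited values, that is FPKM times gene length in kilobases). In the other 9 libraries Rplp0 had 165 to 192 and Gm8730 0.482 to 0.951 RPM. The sum of both was 170 in Tshr-/- library 4 and 166 to 192 elsewhere, and its coefficient of variation over the 10 libraries was 4.83%, against 18.3% for Rplp0 alone. The sequences differ at 12 of 951 aligned bases. The pair of stretches printed here, bases 388 to 447 of the coding sequence from the GENCODE vM21 transcripts, shows how little separates them, with the differing bases in capitals. Rplp0 is at chr5:115561168-115561227 (plus) and Gm8730 at chr8:102865352-102865411 (minus), both in mm10.
Rplp0: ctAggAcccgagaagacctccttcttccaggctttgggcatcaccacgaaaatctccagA
Gm8730: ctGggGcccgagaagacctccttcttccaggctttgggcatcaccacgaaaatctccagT

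With all copies pooled, Rplp0 differed by -0.08 (SE 0.05, limma with Benjamini-Hochberg, adjusted p = 0.490). Rpl17, a protein at the exit tunnel, showed the same division against Rpl17-ps10. Rpl17 had 28.3, 23.8, 25.0, 80.4 and 84.4 RPM in Tshr-/- and 38.0, 51.2, 41.8, 30.6 and 30.3 in wild type. Rpl17-ps10 had 94.1, 88.4, 88.7, 34.3 and 35.7 RPM in Tshr-/- and 80.7, 67.0, 76.3, 83.4 and 82.0 in wild type. Tshr-/- libraries 4 and 5 were high for the gene and low for the copy, and the sum varied by 3.06% (coefficient of variation) where the gene alone varied by 51.1%. Pooled, the difference of Rpl17 was 0.01 (SE 0.05).

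Rpl29 had a pattern across genotypes. It was at 72.2, 36.2, 76.9, 78.9 and 75.0 RPM in Tshr-/- and at 76.6, 76.0, 69.9, 39.1 and 74.3 in wild type. A single library of each genotype, Tshr-/- 2 and wild-type 4, was far below the rest. Its copy Gm13841 had 16.4 RPM in Tshr-/- library 2 and 17.3 in wild-type library 4, against 9.76 to 13.5 in the others, so the sum stayed low in those libraries (52.6 and 56.4, against 82.5 to 90.5). Rps27a was likewise not levelled by its copies: with the copies pooled its difference was 0.46 (SE 0.23, limma with Benjamini-Hochberg, adjusted p = 0.421). What divided the reads was not tested.

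**Figure D5:**
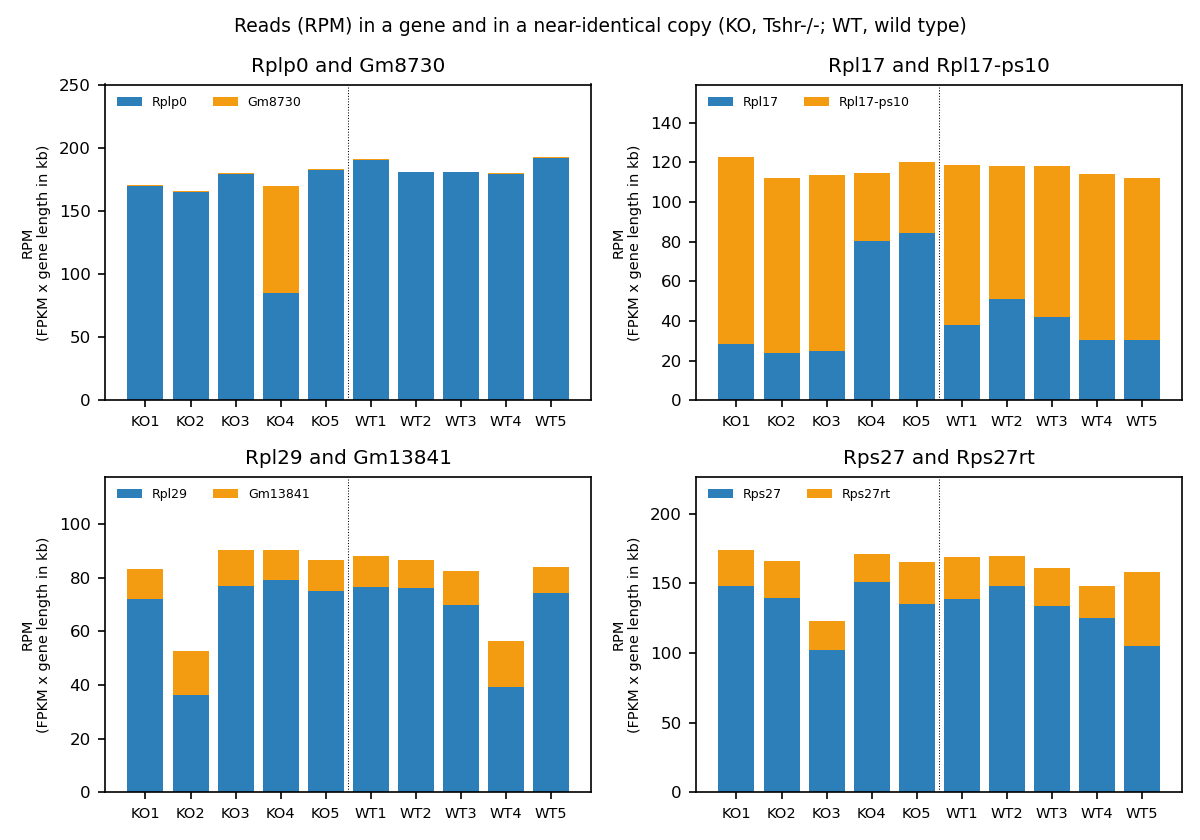
RPM (FPKM times gene length in kilobases) of 4 genes (blue) with a near-identical copy stacked on top (orange), in Tshr-/- libraries (KO1 to KO5, left of the dotted line) and wild-type libraries (WT1 to WT5). In Tshr-/- library 4 Rplp0 and Gm8730 have 84.8 and 85.2, while the stacks of Rplp0 and of Rpl17 stay nearly level; the stack of Rpl29 is low in Tshr-/- library 2 and wild-type library 4.

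Of the 3 variant paralogs, Rpl22l1 and Rps27l had like ratios to their standard protein in both genotypes, and Rps27rt varied widely between libraries. Rpl22l1, which can replace Rpl22 in the ribosome, had 64.5% ± 7.70 of the FPKM of Rpl22 in Tshr-/- and 62.8% ± 6.53 in wild type (SD, n = 5 each). Rps27l, a p53 target close to Rps27, had 9.84% ± 1.69 of the FPKM of Rps27 in Tshr-/- and 10.2% ± 1.34 in wild type. Rps27rt, an intronless copy whose coding sequence is identical to that of Rps27, had 70.2, 71.0, 55.0, 53.7 and 79.4 FPKM in Tshr-/- and 81.0, 57.2, 73.8, 60.3 and 143 FPKM in wild type. It had 51.4% ± 9.04 of the FPKM of Rps27 in Tshr-/- and 70.3% ± 41.0 in wild type. Wild-type library 5 was far above all others, and in the same library Rps27 was at 100 FPKM, the lowest of the wild-type libraries. The tissue-restricted paralogs were near or at the floor: Rpl3l averaged 0.145 FPKM, Rpl39l averaged 0.0498 FPKM and Rpl10l was listed at 0 in every library. Rpl7l1, a nucleolar relative of Rpl7, had 28.8% ± 1.36 of the FPKM of Rpl7 in Tshr-/- and 28.9% ± 2.21 in wild type.

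Among the 8 name matches that are no established ribosome component, 3 were above and 5 below wild type. Rps19bp1, which binds Rps19 and the deacetylase Sirt1, had the smallest p of the 87. It had 21.5, 21.7, 24.5, 20.6 and 23.9 FPKM in Tshr-/- and 28.7, 25.3, 27.6, 23.8 and 25.4 FPKM in wild type. Tshr-/- libraries 3 and 5 lay above the lowest wild-type library, and the rest lay below it. The difference was -0.22 (SE 0.07, limma with Benjamini-Hochberg, adjusted p = 0.238). Among the retrocopies, Rpl10-ps3 differed by -0.33 (SE 0.25) and Rps12-ps3 by 0.01 (SE 0.06).

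Genes that work with these proteins also had 0 calls. Rack1, a scaffold on the small subunit, averaged 22.1 ± 0.719 FPKM in Tshr-/- and 23.2 ± 0.403 FPKM in wild type (SD, n = 5 each). Of 18 elongation factors and other TOP messages 4 were above and 14 below, which turned to 16 above and 2 below after quantile normalization, with none at an unadjusted p below 0.05. Eef1g, part of the factor that reloads elongation factor 1A, averaged 84.0 ± 2.84 FPKM in Tshr-/- and 89.2 ± 2.50 FPKM in wild type. Of 23 assembly factors 5 were above and 18 below, with 10 above and 13 below after quantile normalization. The 1 at an unadjusted p below 0.05 was Nob1, the nuclease that finishes the small-subunit RNA, at 9.58 ± 0.504 FPKM in Tshr-/- and 11.1 ± 1.31 FPKM in wild type (difference -0.20, limma with Benjamini-Hochberg, adjusted p = 0.330). Of 12 genes of RNA polymerase I, which makes the ribosomal RNA precursor, 6 were above and 6 below. Its activator Ubtf, the 1 at an unadjusted p below 0.05, had a difference of -0.20 (SE 0.08).

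Of 19 genes of the mTORC1 pathway 7 were above and 12 below, which turned to 11 above and 8 below after quantile normalization. At an unadjusted p below 0.05, 4 were lower (Eif4ebp2, Mlst8, Akt1 and Tsc2; 21.1%, where 8.38% of all genes were) and 1 was higher (5.26%, where 4.65% were). The higher gene was Deptor, an inhibitor of mTOR, with a difference of 0.52, and it is named here after its value was seen. Eif4ebp2, the main brain repressor of the cap-binding factor, had 11.2, 11.5, 11.6, 12.2 and 10.2 FPKM in Tshr-/- and 13.6, 12.4, 12.4, 12.7 and 14.4 FPKM in wild type. Every Tshr-/- library was below every wild-type library, which held for 1.76% of all genes tested. The difference of Eif4ebp2, the smallest p of its list, was -0.20 (SE 0.06, limma with Benjamini-Hochberg, adjusted p = 0.238). Akt1 and Tsc2, which act above mTORC1, differed by -0.18 (SE 0.07) and -0.19 (SE 0.08). Mitochondrial ribosome proteins, a separate family encoded in the nucleus, had 17 above and 60 below of 77 (36 above and 41 below after quantile normalization), and 6 lower at an unadjusted p below 0.05, which is 7.79% where all genes had 8.38%. Mrpl45, which anchors the mitochondrial ribosome to the inner membrane, averaged 9.91 ± 0.459 FPKM in Tshr-/- and 11.1 ± 0.179 FPKM in wild type (difference -0.17, limma with Benjamini-Hochberg, adjusted p = 0.200). The same hippocampal neuron markers were lower beside these lists too, and their part in them was not tested.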

How the data were processed

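Hippocampal messenger RNA libraries, 5 Tshr-/- and 5 wild type, were built with a NEBNext Ultra kit, which leaves strands unmarked (kit per the labels' protocols). HISAT2 2.0.5, featureCounts 1.5.0-p3 and mm10 are named in the submitters' processing notes, which give no annotation release among the sources used here. The authors deposited FPKM values. FPKM times gene length was divided in each library by its smallest value above 0, taken as 1 read. The result was whole reads for 100% of values within 0.01 of a read. These rebuilt reads entered only voom, the read numbers given and the simulation. Genes were tested with limma 3.58.1 (R 4.3.3) on log2(FPKM + 0.1), which understates changes of low genes, with a mean-variance trend. Benjamini-Hochberg adjustment ran over the 15471 genes whose mean FPKM reached 0.5. Genes at an adjusted p under 0.05 are called. Each difference is Tshr-/- minus wild type.

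In simulated reads on 15471 genes with these libraries' means, 50 genes were changed at each of 4 sizes. The test called 20 of them at 1.3-fold, 29 at 1.5-fold, 43 at 2-fold and all 50 at 3-fold, and it called 4 unchanged genes. Near-identical copies were found with BLAST 2.17.0 in GENCODE vM21, and exon overlaps in the same annotation, in which 71 of 87 genes have the deposited exon length. Promoters came from RefSeq (GRCm38.p6). The members and gene lists were chosen with earlier results of these data known. Genes named are, in each role, the 3 with the highest level, up to 5 with the smallest p and every gene of a group of 5 or fewer, together with a fixed set of paralog pairs and well-studied members and, in each related list, up to 4 with the smallest p. Copies and genes with a library far from the rest were named after their values were seen, and not every gene of the rule is described. Alternatives covered pseudocounts, filters, scalings, variance models, voom, tissue covariates, each library left out, the replicate number as a block and, chosen after seeing the data, pooling of copies. A few results the rules take are not reported here.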

Additional observations from a re-analysis of the deposited data

Results flagged for a closer look

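Each gene of the family was examined for a single library standing apart within its genotype, by the gap to the nearest library over the whole range. Of 174 such groups 14 had 1, and chance gives about 1 in 20; 13 are described.

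In Tshr-/- library 3, Rps25 was low at 56.8 FPKM (others 67.0 to 70.1) and Rpl34 was low at 28.8 FPKM (others 36.6 to 39.1), in the library where 13 of the 87 genes were above their own mean. Rpl24 was high there at 1.29 FPKM (others 0.824 to 0.926). In Tshr-/- library 4, Rplp0 was low at 51.1 FPKM (others 99.3 to 110), beside 89.3 FPKM of Gm8730. Rpl29 was low at 32.2 FPKM in Tshr-/- library 2 (others 64.1 to 70.1) and at 34.7 FPKM in wild-type library 4 (others 62.1 to 68.1). Rps12 was high at 28.1 FPKM in Tshr-/- library 2 (others 20.6 to 22.4). Rpl32 was high at 125 FPKM in Tshr-/- library 1 (others 114 to 116), and Rpl13a was high at 19.2 FPKM in Tshr-/- library 5 (others 13.6 to 15.2).

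Among wild-type libraries, Rps27rt was high at 143 FPKM in library 5 (others 57.2 to 81.0) and Rpl21 was high there at 14.0 FPKM (others 7.34 to 8.96). Rpl23a-ps3 was low at 19.8 FPKM in library 3 (others 31.0 to 35.0), and Rpl13 was low at 113 FPKM in library 2 (others 118 to 119).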

How the results depend on the processing

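No ribosomal protein gene was called under any of the 27 alternatives run. The number at an unadjusted p below 0.05, 2 as deposited, was 6 with array quality weights and 1 with the thalamic covariate, without the 4 libraries highest in thalamic markers or with copies pooled, and 1 to 5 with a library left out (5 without Tshr-/- library 5, 4 without wild-type library 4, and 1 without Tshr-/- library 1, wild-type library 2 or wild-type library 3). Their median difference moved to 0.0476 with quantile normalization and 0.0360 with voom, and lay from -0.04 to -0.01 with a library left out. Among 39 named genes the sign changed for 15 under quantile normalization, 13 under voom and at most 4 under any other alternative. Voom scaled the libraries by their read totals, not by the size factors of the deposited values. The median difference of all genes was 0.06 with voom and -0.01 as deposited. The cause of the sign changes was not tested. Calls over the whole table, 2 as deposited, were 14 with a pseudocount of 0.01 or the thalamic covariate, 4 without a filter, with quantile normalization or with the choroid plexus covariate, 13 at a mean FPKM of at least 1, with robust empirical Bayes or with copies pooled, 17 for protein-coding genes alone, 9 with voom, 1 without the variance trend and 0 to 9 with a library left out. The difference in the share of all FPKM, 0.0750 percentage points, ran from 0.0493 to 0.134 with a library left out. Deposited values already have median-ratio factors of 1, so that scaling changed nothing.

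Deviations of same-numbered libraries had correlations of -0.063, 0.296, 0.0762, 0.169 and -0.0651. Of the 5 Tshr-/- libraries, 2 were closest to the wild-type library of their number. With 5 libraries per genotype these values cannot decide whether the numbers pair the libraries. With the replicate number as a block, 0 ribosomal protein genes were called, 3 had an unadjusted p below 0.05, the median stayed at -0.03 and 3 genes were called over the table.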

Other observations

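The copy of Rps7 on the X chromosome, Gm6472, was chosen after its values were seen. It had 43.2, 21.6, 44.2, 41.3 and 42.6 RPM (FPKM times gene length in kilobases) in Tshr-/- libraries 1 to 5, against 48.0, 41.5, 44.5, 21.1 and 21.9 in wild-type libraries 1 to 5. The libraries thus fell at 2 levels, with Tshr-/- library 2 and wild-type libraries 4 and 5 at the lower. Rps7 itself had 165 to 186 RPM in Tshr-/- and 170 to 199 in wild type.

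Rpl21 had 36.2, 29.1, 28.8, 36.9 and 47.7 RPM in Tshr-/- and 25.0, 28.9, 25.0, 30.5 and 47.5 in wild type. A single library of each genotype, number 5 in both, was the highest. The copy Rpl21-ps15 on the X chromosome stayed between 39.2 and 45.3 RPM over all libraries.

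The largest shares of exon bases in common with another gene were those of Rpl35, 66.2% with Wdr38 on the opposite strand, and of Rpl23a, 59.7% with Tlcd1 on the opposite strand. Of the 87 genes, 15 shared more than 10% of their exon bases with other genes, and since the strand was not marked their reads cannot be assigned to a strand.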
